A study of Saccharomyces cerevisiae with 4 samples.

Results

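The genes described here encode the main protein-folding machines of budding yeast, Saccharomyces cerevisiae: the Hsp70 chaperones with their J-protein partners and exchange factors, the Hsp90 chaperones with their co-chaperones, the disaggregases Hsp104 and Hsp78, the mitochondrial chaperonin, the cytosolic chaperonin CCT, and Hsf1, the transcription factor that drives many of them. They were chosen by name, 38 genes in all, and each was represented by the brightest probe set that the platform annotation gives to that gene alone. Such a probe set was held by 36 of the 38, with exactly 1 each, against 5656 genes in the whole table. All 36 passed the filter on dim probe sets, as did 5271 genes in all. The 2 members without one, SSB1 and SSB2, share a single probe set.

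Expression was measured with 4 one-colour Affymetrix arrays, 1 per culture grown in the rich medium YPD. Of these, 2 were labelled hst3hst4 (strain YCB600, mutant in HST3 and HST4, which encode sirtuin deacetylases of histone H3) and 2 were labelled wild-type (strain YCB617), both in the FY background. Each group is a single strain, so any other difference between the strains cannot be told apart from the mutations, and further alleles were not given in the sources. The study compared every mutant culture with every wild-type one to ask how transcript levels differ in the mutant.

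As background, Hsp70 proteins bind short hydrophobic stretches of unfolded polypeptides in a cycle of ATP hydrolysis that J proteins stimulate and exchange factors reset. Hsp90 takes over partly folded clients such as kinases with the help of co-chaperones, and the barrel-shaped chaperonins enclose clients, actin and tubulin being the best known for CCT. Yeast keeps several of these as paralog pairs of which one is made at all times and the other mainly during heat or other stress, under Hsf1 and the general stress factors Msn2 and Msn4.

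The deposited values are linear signals that the authors had scaled per array to a common trimmed mean of 150.2, so every difference below is relative to the average probe set. Log2 signals correlated across probe sets with r = 0.984 between the hst3hst4 arrays, r = 0.971 between the wild-type arrays, and 0.953 to 0.966 between strains. HST3 had signals of 0.4 and 0.5 in hst3hst4 against 13.7 and 25.3 in wild-type. HST4 went against the labels, with 38 and 39.3 against 3.6 and 0.9, and the sources used here do not say where its probes lie relative to the mutated part. The strains are therefore called by their labels, and each direction reads from the libraries labelled wild-type to those labelled hst3hst4. Of the mating-type markers, MFA2, an a-factor gene, read from 1868 to 2303.7 over the 4 arrays. STE3, the a-factor receptor gene of alpha cells, read from 7.2 to 25.3. Signals of different probe sets are not on one scale, so no mating type was read from them. All 5 a-specific markers had log2 fold changes below 0, against 51.7% of all tested genes. Of these, STE6 was called lower (-1.05, limma adjusted p = 0.0284) in the test described below. Of 3 alpha-specific markers, 2 were above 0 and 0 were called. The 9 bacterial and phage hybridisation controls all read lower in hst3hst4, with a mean log2 difference of -0.36, and scaling the arrays on them shifted the median over all tested genes from -0.01 to 0.32. The 3'/5' signal ratio is a measure of RNA quality. For the TATA-binding protein gene it ran from 3.70 to 3.82 on the hst3hst4 arrays and from 4.64 to 5.20 on the wild-type arrays. For SRB4 it went the other way, with 2.34 and 1.90 on the hst3hst4 arrays against 1.87 and 1.63 on the wild-type arrays. For actin the strains overlapped. The part of the control difference or of these ratios in the results below was not tested.

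The chaperone genes did not move as one body. The inducible cytosolic Hsp70 gene SSA3 rose, the constitutive SSA2 fell, and the other 34 did not pass the test, which was limma's moderated test on log2(signal + 3.3) with Benjamini-Hochberg adjustment over all 7420 probe sets tested and a threshold of 0.05. Among all tested, 2.1% of probe sets were called higher and 0.539% lower, so 1 member of 36 in each direction is not set apart from the background. The log2 fold change was below 0 for 26 of the 36 members under the deposited scaling, and for 8 under scaling on the hybridisation controls. The median over members was -0.24, against -0.01 over all tested genes.

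The members were then sorted by whether the arrays of the strains overlapped. For 21 members both hst3hst4 arrays lay below both wild-type arrays, 58.3% of the 36, against 27.2% of all probe sets tested. For 4 members (SSA3, SSA4, HSP82 and AHA1) both lay above, against 25.4% of all probe sets, and for 11 the arrays overlapped. Members share arrays and regulators, so they are not independent, and no test was made over them. The 95% interval of the log2 fold change, without adjustment for the number of genes, excluded 0 for 12 of 36 members, against 20.2% of all probe sets tested: SSA3, SSA4 and HSP82 above it, and SSA2, YDJ1, FES1, SSZ1, SSC1, HSP60, KAR2, HSC82 and STI1 below it.

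**Figure D1:**
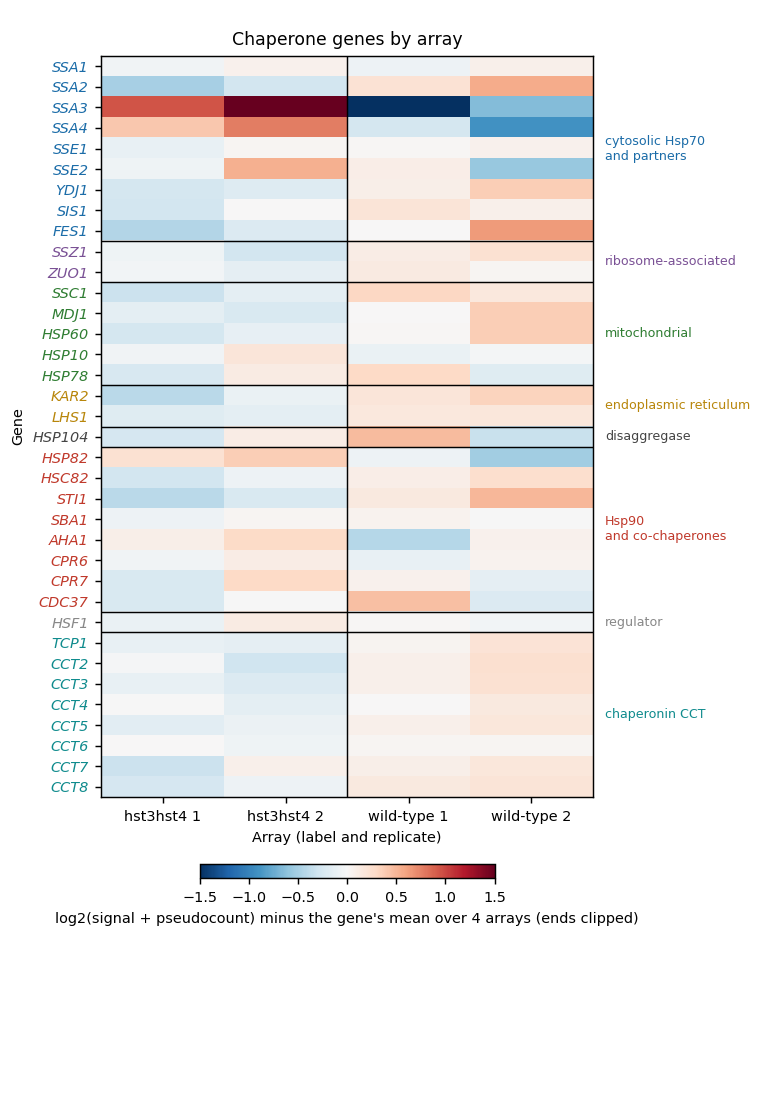
Each row is a chaperone gene and each column an array; the colour gives log2(signal + 3.3) minus that gene's mean over the 4 arrays, clipped at 1.5 either way, with genes grouped by role. SSA3 and SSA4 are red on both hst3hst4 arrays and blue on both wild-type arrays, the 8 CCT genes are paler and mostly blue on hst3hst4 and red on wild-type, and HSP104 is red on the first wild-type array and blue on the second.

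Among the cytosolic Hsp70 genes, SSA3 had the largest difference of any member. Its signals were 86.8 and 147.4 in hst3hst4 against 8.6 and 26.5 in wild-type. The strains did not overlap, although the wild-type cultures themselves differed by 1.32 on the log2 scale, the second being higher. SSA3, the gene for an Hsp70 that is nearly silent in unstressed growth, rose 6.19-fold (log2 fold change 2.63, SE 0.43, limma adjusted p = 0.0248). It was also the single member at least 2-fold apart in each of the 4 array pairs formed across strains, a rule met by 1.64% of all probe sets in either direction; its pairs ran from 3.02-fold to 12.7-fold. The call was lost without hst3hst4 replicate 1 (adjusted p = 0.177) or replicate 2 (2.26, adjusted p = 0.275), with no filter (adjusted p = 0.105) and with no variance trend (adjusted p = 0.103). The log2 fold change became 1.97 when wild-type replicate 1 was left out and 3.29 when wild-type replicate 2 was.

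SSA4 encodes the other stress-inducible Hsp70 of this family. Its signals were 229.5 and 296.0 in hst3hst4 against 143.0 and 89.9 in wild-type. Both mutant cultures thus read above both wild-type cultures, by 1.59-fold to 3.21-fold in the 4 pairs. The log2 fold change of 1.18 (SE 0.25, 95% interval 0.61 to 1.75) had a limma adjusted p of 0.0538, just outside the threshold, and the gene was called in 7 of 15 alternative analyses, 2 of which kept a single wild-type array.

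The constitutive Hsp70 genes behaved differently from these. SSA2, whose product is a principal Hsp70 of growing cells, read 4443.8 and 5175.4 in hst3hst4 against 7271.7 and 9252.0 in wild-type. It fell by 0.77 on the log2 scale (SE 0.15, limma adjusted p = 0.0419), and the strains did not overlap. SSA1, which has a basal level and is further induced by heat, read 10667.7 and 11566.0 against 10486.7 and 11725.8, with overlapping strains. Its log2 fold change of 0.00 (95% interval -0.26 to 0.26) became 0.18 with quantile normalization and 0.36 on the hybridisation controls. These SSA1 signals are near the top of the table, whose highest value was 16367.9, and no saturation flags were used here.

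SSA1 and SSA2 have near-identical coding sequences, so their separate values are uncertain. A probe set that the annotation gives to both read 1930.0 and 1617.8 against 2593.5 and 2506.4 (log2 fold change -0.53, SE 0.14, limma adjusted p = 0.0936), and a second shared one read 13327.5 and 14189.2 against 13757.7 and 16367.9 (-0.13, SE 0.12, adjusted p = 0.594). Both shared probe sets thus had negative values, the second with overlapping arrays. The SSA2 call was lost with median centring (-0.82, adjusted p = 0.057), with scaling on the hybridisation controls (-0.41, adjusted p = 0.0845), with no filter, with no trend and without either hst3hst4 array, where the highest adjusted p was 0.379.

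The partners of cytosolic Hsp70 were mostly on the side of SSA2. YDJ1, the main J protein of the cytosol, read 1514.2 and 1582.0 in hst3hst4 against 1923.7 and 2336.6 in wild-type (log2 fold change -0.45, SE 0.14, adjusted p = 0.141). FES1, a nucleotide exchange factor, read 255.2 and 299.0 against 348.0 and 538.8 (-0.64, SE 0.22, adjusted p = 0.173). SIS1, an essential J protein that also restrains Hsf1, read 529.3 and 640.9 against 734.3 and 672.3 (-0.27, adjusted p = 0.377). In all 3 the strains' arrays were apart with the mutants lower, as for 27.2% of all probe sets tested. None of the 3 passed the test. On scaling to the hybridisation controls the SIS1 value turned to 0.09. The Hsp110 exchange factors SSE1 and SSE2 had overlapping arrays: SSE1 had a log2 fold change of -0.08 (95% interval -0.39 to 0.23), which became 0.28 on the hybridisation controls.

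SSE2, the stress-inducible Hsp110, read 168.0 and 255.8 in hst3hst4 against 189.2 and 117.5 in wild-type. The first wild-type culture therefore lay between the mutant cultures, and the log2 fold change of 0.47 had a 95% interval of -0.18 to 1.11 and an adjusted p of 0.388.

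**Figure D2:**
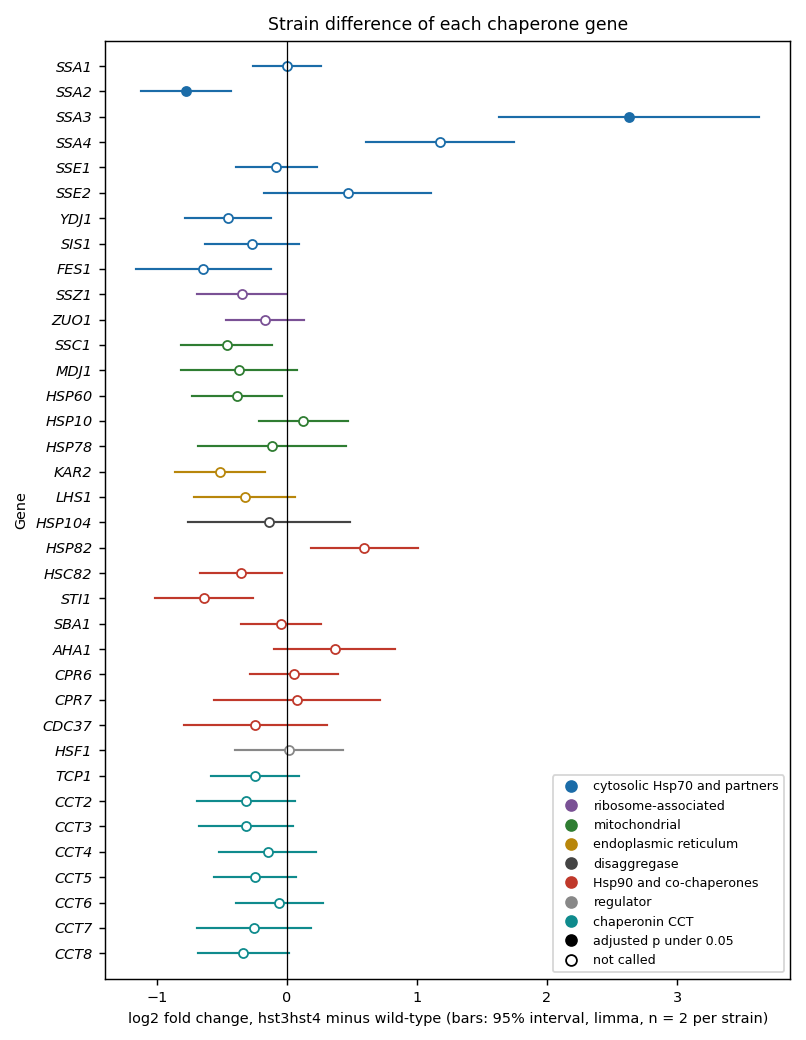
The horizontal axis is the log2 fold change of hst3hst4 against wild-type for each of the 36 genes, coloured by role, with its 95% interval; filled points passed the limma test. Only SSA3 at 2.63 and SSA2 at -0.77 are filled, and all 8 CCT points lie just left of 0 with intervals that cross it.

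On the ribosome, the Hsp70 genes SSB1 and SSB2, whose products bind nascent chains, could not be read apart. Their shared probe set had signals of 3382.0 and 3282.2 in hst3hst4 against 4079.0 and 4306.0 in wild-type, apart in every array pair (log2 fold change -0.33, SE 0.11, limma adjusted p = 0.173). Their partners in the ribosome-associated complex had the same sign, SSZ1 with 662.5 and 573.8 against 752.4 and 818.8 (-0.35, adjusted p = 0.241) and ZUO1, the J protein, with 1336.9 and 1250.0 against 1503.4 and 1403.7 (-0.17, adjusted p = 0.508). Neither passed, and on the hybridisation controls both values turned, to 0.01 and 0.19.

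In mitochondria, SSC1, the matrix Hsp70 that pulls in imported proteins, read 434.8 and 492.6 in hst3hst4 against 675.2 and 606.3 in wild-type (log2 fold change -0.46, SE 0.15, adjusted p = 0.154). HSP60, the chaperonin subunit, read 2326.3 and 2569.7 against 2832.0 and 3604.6 (-0.39, SE 0.15, adjusted p = 0.213). MDJ1, the J protein of Ssc1, read 93.8 and 88.6 against 104.5 and 135.3 (-0.37, adjusted p = 0.327). The arrays of the strains were apart in all 3, with the mutants lower, as for 27.2% of all probe sets tested. None of the 3 passed.

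HSP10, the lid of the Hsp60 chamber, did not share that sign: it read 624.2 and 732.6 against 605.7 and 632.6 (log2 fold change 0.13, 95% interval -0.22 to 0.47), with overlap. HSP78, the mitochondrial disaggregase, had overlapping arrays too (-0.11, 95% interval -0.68 to 0.45), and 0.22 on the hybridisation controls. The median of the 5 mitochondrial members was -0.37, which became -0.02 on those controls.

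In the endoplasmic reticulum, KAR2, the lumenal Hsp70 BiP that rises in the unfolded protein response, read 1409.6 and 1740.9 in hst3hst4 against 2116.5 and 2366.8 in wild-type. The strains did not overlap, and the log2 fold change of -0.51 (SE 0.15) had an adjusted p of 0.122. LHS1, its exchange factor, had the smallest spread within strains of the 36 members, 91.1 and 93.1 against 115.9 and 116.6 (-0.33, SE 0.17, adjusted p = 0.325), and its value was 0.02 on the hybridisation controls. None of 14 tested other genes of folding in this compartment passed. An unadjusted p under 0.05 was found for 0 of them, against 1010 of all 5271 tested genes. Their median was 0.05, from HAC1, the transcription factor of that response, at -0.25 to CPR5, a prolyl isomerase, at 0.21.

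HSP104, the hexameric disaggregase that dissolves aggregates after heat, gave no resolvable strain difference. It read 328.7 and 423.7 in hst3hst4 against 545.9 and 309.3 in wild-type, so both mutant values lay between those of the wild-type cultures. The log2 fold change was -0.14 with a 95% interval of -0.76 to 0.48, and it turned to 0.22 on the hybridisation controls, to 0.04 without hst3hst4 replicate 1 and to 0.27 without wild-type replicate 1.

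Neither of the 2 Hsp90 genes passed the test. HSP82, the more heat-inducible paralog, read 889.9 and 977.0 in hst3hst4 against 718.0 and 528.4 in wild-type. HSC82, the paralog made at high level in growing cells, read 1994.8 and 2301.1 against 2589.0 and 2890.4. In each the strains did not overlap under the deposited scaling. HSP82 was higher on the mutant arrays (log2 fold change 0.60, SE 0.18, adjusted p = 0.127) and HSC82 lower (-0.35, SE 0.13, adjusted p = 0.206). On the hybridisation controls both were above 0, at 0.95 (limma adjusted p = 0.000341, a call) and 0.01. Adjusted p-values under that scaling are not comparable with those of the main fit. A probe set that the annotation gives to both genes read 1810.3 and 2023.7 against 2565.0 and 3177.2 (-0.58, SE 0.15, limma adjusted p = 0.0927), the direction of HSC82. Its value lay below those of both genes' own probe sets, so the separate values of HSP82 and HSC82 are uncertain.

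Among the Hsp90 co-chaperones STI1, which bridges Hsp70 and Hsp90, stood lowest. It read 807.9 and 913.8 in hst3hst4 against 1183.0 and 1511.1 in wild-type (log2 fold change -0.64, SE 0.16, adjusted p = 0.0927), without overlap. STI1 lies on chromosome XV with 1490 bp and 1 protein-coding gene between it and HST3 in the R64 assembly, and HSP10 lies 7374 bp to the other side; whether the altered locus bears on either was not tested. AHA1, the activator of the Hsp90 ATPase, read 301.6 and 347.3 against 210.7 and 297.5 (0.37, adjusted p = 0.353); its arrays were apart by no more than 4.1 signal units between the nearest pair.

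The remaining co-chaperones overlapped between strains. SBA1, the p23 homologue, had a log2 fold change of -0.04 (95% interval -0.35 to 0.26), CPR6 and CPR7, the cyclophilin-type isomerases, 0.05 (-0.28 to 0.39) and 0.08 (-0.56 to 0.71), and CDC37, the kinase-specific co-chaperone, -0.24 (-0.79 to 0.31). CDC37 read 216.1 on the first wild-type array and from 133.5 to 156.2 on the other arrays, and its value was 0.08 without wild-type replicate 1. HSF1, the regulator itself, read 92.4 and 108.7 against 101.2 and 96.8, with a log2 fold change of 0.02 (95% interval -0.40 to 0.43). Both SBA1 and CDC37 turned above 0 on the hybridisation controls, at 0.31 and 0.11.

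The comparison of inducible with constitutive paralogs used, for each array, the log2 signal of the inducible gene minus that of its partner. Only the change of this quantity between strains was read, since signals of different probe sets are not on one scale. Relative to SSA2, SSA3 was higher on the hst3hst4 arrays by 3.40 on the log2 scale (2.65 to 4.15 over the 4 pairs) and SSA4 by 1.95 (1.38 to 2.52). Relative to SSA1, SSA4 was higher by 1.17 (0.65 to 1.70), and HSP82 relative to HSC82 by 0.95 (0.61 to 1.28). The uncertainty of the separate SSA1, SSA2, HSP82 and HSC82 values, given above, carries over to these differences. In these 4 pairs of genes all array pairs had the same sign. Among single probe sets tested, 25.4% had both hst3hst4 arrays above both wild-type arrays and 27.2% had both below. Such separation is therefore common, and its share among differences of gene pairs was not measured. Each exact permutation test (two-sided, 2 arrays against 2) gave p = 0.333, the smallest that this design allows, so none can pass a threshold of 0.05.

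The other gene pairs did not separate. SSE2 relative to SSE1 differed by 0.55, with array pairs from -0.04 to 1.14 (exact permutation p = 0.667), and CPR6 relative to CPR7 by -0.02, from -0.38 to 0.34 (exact permutation p = 0.667). The 6 gene pairs share genes and arrays, so they are not separate pieces of evidence. Scaling an array shifts both genes of a pair nearly alike, and on the hybridisation controls the sign turned for CPR6 and CPR7 alone, to 0.02.

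**Figure D3:**
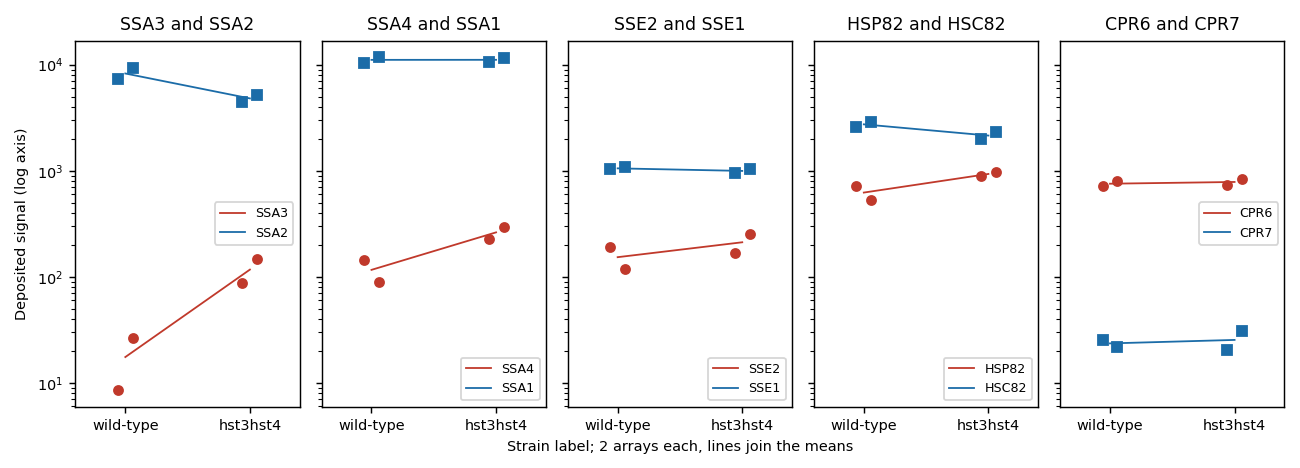
Each panel gives the deposited signal on a log axis for an inducible gene (red circles) and its partner (blue squares) on the 2 wild-type and 2 hst3hst4 arrays, with lines through the means; CPR6 and CPR7 are shown in the same order. SSA3, SSA4 and HSP82 climb from wild-type to hst3hst4 without overlap, SSA2 and HSC82 descend, and SSE2 overlaps; heights of different genes are not comparable.

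The 8 genes of the chaperonin CCT gave small differences of uniform sign. Under the deposited scaling both hst3hst4 arrays read below both wild-type arrays in every one, against 27.2% of all probe sets tested. The log2 fold changes ran from -0.33 for CCT8 to -0.06 for CCT6 with a median of -0.25. On the hybridisation controls all 8 were above 0, from 0.02 to 0.30. CCT8 read 342.0 and 386.8 in hst3hst4 against 451.1 and 468.2 in wild-type (SE 0.15, 95% interval -0.68 to 0.01, adjusted p = 0.264). CCT2 read 512.4 and 419.0 against 545.0 and 612.1 (-0.32, adjusted p = 0.325) and CCT3 269.3 and 253.7 against 309.1 and 343.9 (-0.32, adjusted p = 0.301). None of the 8 passed in limma, and each 95% interval included 0. An unadjusted p under 0.05 was found for 0 of the 8, against 1010 of all 5271 tested genes.

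At the other end of the range, CCT6 read 406.6 and 384.9 against 411.7 and 412.7, a separation of 5.1 signal units between the nearest arrays, and CCT4 read 212.3 and 193.0 against 213.5 and 236.6, a separation of 1.2. TCP1, CCT5 and CCT7 lay between, at -0.25, -0.24 and -0.25. CCT subunits form a ring in which each occupies a fixed place, and their genes are spread over the genome; CCT6 lies on chromosome IV with 4275 bp between it and HST4. The prefoldin and phosducin-like partners of CCT did not share the sign as a list: of 7 tested, 4 were above 0 and none passed. Of these 7, 1 had an unadjusted p under 0.05, against 1010 of all 5271 tested genes. Values ran from GIM4, a prefoldin subunit, at 0.22 to YKE2, another, at -0.49. The median was 0.16, or -0.022 when the second hst3hst4 array was left out.

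The direction of a group depended on how the arrays were put on one scale, so each was also read relative to all genes. The CCT median lay below the median of all tested genes by 0.23 under the deposited scaling (group minus all genes, -0.23) and by 0.22 on the hybridisation controls (-0.22), and from -0.27 to -0.20 over the 15 alternatives. For the mitochondrial members this difference was -0.36, with a range of -0.37 to -0.18, and for the cytosolic Hsp70 group, which holds both SSA3 and SSA2, it was -0.07. The Hsp90 group sat at 0.02, with a range of -0.09 to 0.07.

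**Figure D4:**
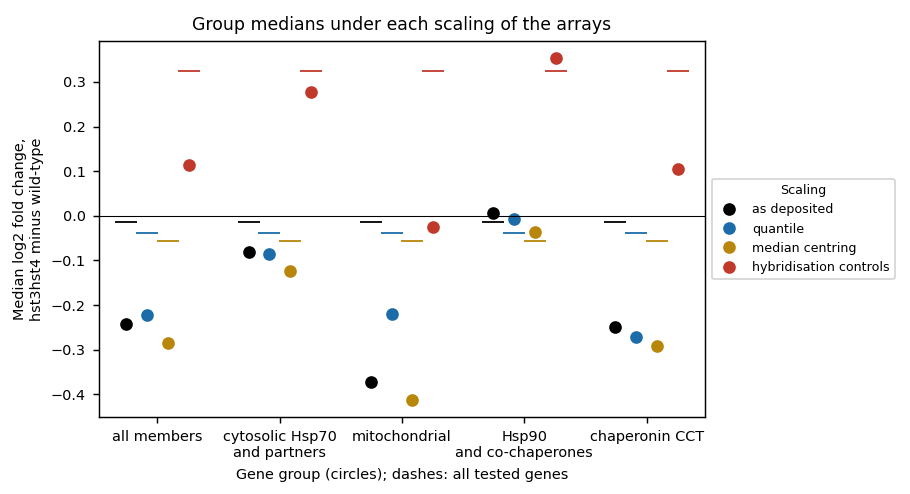
Circles give the median log2 fold change of each gene group under 4 scalings of the arrays and dashes the median of all tested genes under the same scaling. Scaling on the hybridisation controls lifts the all-gene median to 0.32 and the CCT median to 0.11, and the CCT and mitochondrial circles stay below their dashes under all 4.

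The strain differences were set against the spread between cultures of one strain. The median absolute difference between the wild-type arrays over the 36 members was 0.16 on the log2 scale, and that between the hst3hst4 arrays 0.19. The first wild-type culture read above the second by more than 0.4 for 6 members, SSA4, SSE2, HSP78, HSP104, HSP82 and CDC37, whereas SSA3 read higher on the second. The strain difference was larger than both within-strain differences for 21 of 36 members, against 39% of all probe sets tested, 3 of them higher on hst3hst4 (SSA3, SSA4 and HSP82) and 18 lower. For the other 15, among them HSP104, SSE2 and AHA1, it was within the spread of at least 1 strain. When wild-type replicate 1 was left out, the spread came from the 2 hst3hst4 arrays alone, the lone wild-type array being assumed to vary like them. That fit called 11.7% of all probe sets and 9 members: SSA3, SSA4 and HSP82 higher, and SSA2, YDJ1, FES1, HSP60, KAR2 and STI1 lower.

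**Figure D5:**
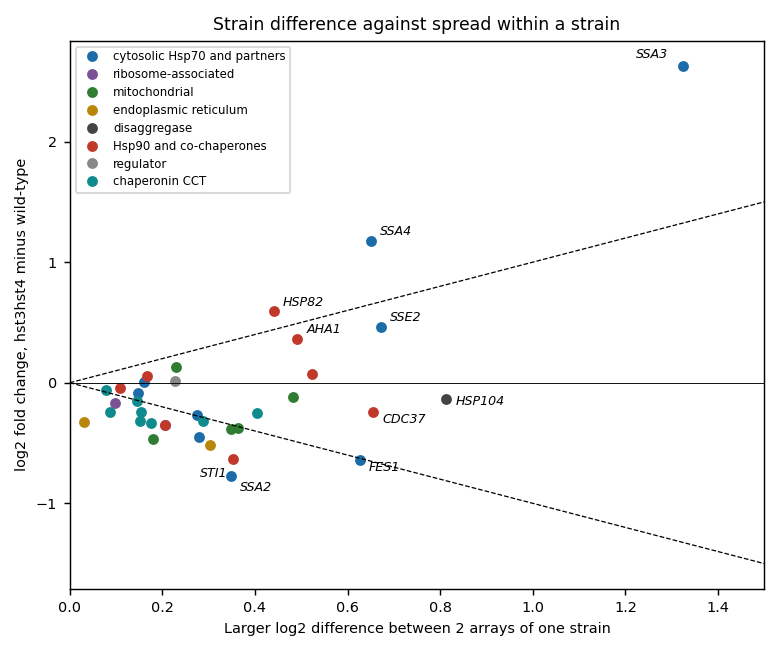
The horizontal axis is the larger of the log2 differences between the 2 arrays of one strain, the vertical axis the log2 fold change of hst3hst4 against wild-type, and points between the dashed lines have a strain difference within that spread. SSA3, SSA4 and HSP82 lie above the upper line, SSE2, HSP104, CDC37 and AHA1 between the lines, and SSA2 and STI1 below the lower one.

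The wider stress and folding genes place the members in context. Of 12 other heat shock and stress genes, 3 rose: HSP26, a small heat shock protein (633.9 and 757.6 against 85.2 and 48.1, log2 fold change 3.37), HSP12, a membrane-associated stress protein (3959.0 and 4124.2 against 752.7 and 543.6, 2.65), and HSP31, a glyoxalase of the DJ-1 family (1108.8 and 1220.0 against 426.9 and 229.2, 1.88, SE 0.27, limma adjusted p = 0.0171). The other 9 did not pass, and over all probe sets tested 2.1% were called higher. HSP42, the other small heat shock protein gene, read 383.2 and 418.7 against 542.0 and 250.1 (0.12, adjusted p = 0.864), the same enclosure of the mutant values by the wild-type ones as in HSP104. MBF1, a transcriptional coactivator, was lowest at -0.49 (adjusted p = 0.151), and the median was 0.14, which became 0.69 when the first wild-type array was left out and -0.17 when the second was. On this list the first wild-type culture exceeded the second by a median of 0.55 (second minus first, -0.55), more than the median strain difference.

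Partner genes of the chaperones gave 0 calls in the limma test. Among 8 tested cytosolic J proteins and exchange factors the values ran from DJP1, a J protein of peroxisomal import, at -0.78 to SWA2, the auxilin of clathrin coats, at 0.27 (median -0.02). Among 7 genes listed as Hsp90 partners they ran from TAH18 at -0.35 to TAH1, a subunit of the R2TP complex, at 0.52 (median 0.15). TAH18 encodes a diflavin reductase and is not an Hsp90 partner, although the list and its median include it. The other 6 genes of the list were above 0. Among 10 partners of mitochondrial Hsp70 they ran from PAM18, the J protein of the import motor, at -0.50 to ECM10, an Ssc1 paralog, at 0.49 (median -0.18). An unadjusted p under 0.05 was found for 1 of 8, 2 of 7 and 1 of 10 genes of these lists, against 1010 of all 5271 tested genes.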

How the data were processed

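Total RNA was primed with oligo-dT, amplified in 1 round, biotin-labelled and hybridised, per the labels' protocols. The authors deposited 1 linear intensity value for each probe set and array; per the submitters' processing notes, GCOS 1.4 and MAS5 were used. The scale target and detection calls were not used here. Of 9335 probe sets, 60 controls were left out. Gene names came from the platform annotation, brought up to date with the R64 RefSeq table (6504 had 1 gene, 328 several and 2443 none listed). Signals were transformed as log2(signal + 3.3), with the 10th percentile of all signals as pseudocount, which understates changes of dim genes, and the lowest 20% of probe sets by mean were left out. The strains were compared with limma 3.58.1 (R 4.3.3, a linear model with moderated, intensity-trended variances), two-sided, adjusted over 7420 probe sets; the fit was tested on simulated data. The series' design names independent cultures, 2 per strain, which limits every value. The members, lists and tests were chosen with earlier results of these data known. The named genes are all members, HST3 and HST4, and for each wider list its highest, its lowest and its called genes. HSP42 and the mating-type markers MFA2, STE3 and STE6 were added after their values were seen. A planned search of promoter motifs was not run, as no promoter sequences were used here. Of the listed genes, SSB1 and SSB2 had no probe set of their own, JJJ2 fell below the filter and FKB2 was not matched to a symbol; 1 further listed gene is not reported here.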

Additional observations from a re-analysis of the deposited data

How the results depend on the processing

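With 2 arrays per strain the calls rested on the variance model and on single libraries. The fit called 196 of 7420 probe sets (156 higher, 40 lower) and 2 members, and 1 member was at least 2-fold apart in all 4 array pairs. With no filter it called 36 (31 higher, 5 lower) and with no trend 38 (37 higher, 1 lower). Both called 0 members, 0 higher and 0 lower. In the main fit 12 of 36 members had an unadjusted p under 0.05, against 1010 of all 5271 tested genes. Scaling on the hybridisation controls, which shifts an array as a whole, called 1155 (1126 higher, 29 lower). It called 5 members (SSA3, SSA4, SSE2, HSP82 and AHA1), 5 higher and 0 lower, with 8 members below 0. For SSA3 the limma adjusted p went from 0.0248 to 5.7e-19 there, while the log2 fold change went only from 2.63 to 2.94. Adjusted p-values and calls under this scaling are therefore not comparable with those of the main fit, and the cause was not tested. Leaving out 1 array, which leaves a lone sample assumed to vary like the other strain's, gave 4 (without hst3hst4 replicate 2) to 865 (without wild-type replicate 1), from 3 to 588 higher and from 1 to 277 lower, and 0 to 9 members, 0 to 3 higher and 0 to 6 lower; without wild-type replicate 2 the total was 337 and without hst3hst4 replicate 1 it was 9. The members at least 2-fold apart in all remaining pairs were then 1 to 2, and 2 at a fold of 1.5 (SSA4 joining SSA3). Median centring called 1 member and 0 lower. Quantile normalization, the pseudocount of 12.9 and leaving out the lowest 40% each called 2 members higher, adding SSA4. Same-numbered cultures deviated with r = -0.04 over probe sets and the labels give the numbers no further meaning; with the replicate number as a block the fit called 343 (250 higher, 93 lower) and 4 members, 2 higher and 2 lower, adding SSA4 and STI1. The pseudocount of 1 and both other ways of choosing probe sets changed no member's call or sign.

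On the hybridisation controls 18 members changed sign: SSE1 (0.28), SIS1 (0.088), SSZ1 (0.011), ZUO1 (0.19), HSP78 (0.22), LHS1 (0.022), HSP104 (0.22), HSC82 (0.0066), SBA1 (0.31), CDC37 (0.11), TCP1 (0.11), CCT2 (0.041), CCT3 (0.040), CCT4 (0.20), CCT5 (0.11), CCT6 (0.30), CCT7 (0.10) and CCT8 (0.022). The medians there were 0.11 over all members, 0.28 for the cytosolic Hsp70 group, -0.024 for the mitochondrial one, 0.35 for the Hsp90 group, 0.11 for CCT and 0.32 over all tested genes, and CPR6 relative to CPR7 was at 0.018. With median centring SSA1 was at -0.039, HSF1 at -0.024 and the median of all members at -0.28, and with quantile normalization the mitochondrial median was -0.22. Beyond these, signs changed with 1 array left out for members whose intervals included 0. The log2 fold changes then ran from -0.078 to 0.083 for SSA1, from -0.36 to 0.13 for HSP78, from -0.54 to 0.27 for HSP104, from -0.10 to 0.010 for SBA1, from -0.029 to 0.14 for CPR6, from -0.19 to 0.34 for CPR7, from -0.57 to 0.085 for CDC37 and from -0.10 to 0.13 for HSF1. CPR6 relative to CPR7 ran from -0.20 to 0.16, the median of all members from -0.26 to -0.17 and the mitochondrial median from -0.39 to -0.21. The causes of these shifts were not tested. The arrays held no detection calls or probe-level background, so what signal over background limits was not measured.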
